A study of Mus musculus with 23 samples.

Results

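The RNAs recovered with wild-type CTCF from mouse embryonic stem cells (ESCs) were compared between UV-crosslinked cells and the same cells without UV. Each side was 1 list of crosslink sites, single bases on 1 strand of the mm10 genome, called after the libraries of a condition had been merged. A gene entered the comparison when it held at least 20 sites on its own strand in both lists together, and 6208 genes did so, out of 8231 that reach 20 sites over all lists of the series. The lists used here held 610105 of the 1346716 sites and came from 8 of the 23 libraries, 4 per list.

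The study asked which RNAs CTCF contacts through its first zinc finger in ESCs and in neural progenitor cells (NPCs), using iCLIP2, which maps protein contacts on RNA from the positions where reverse transcription stops. Both groups were E14 ESCs of the CTCF-WT rescue line. Both endogenous Ctcf alleles carried mAID-eGFP, the adapter OsTir1(F74G) sat at the Rosa26 locus, and a doxycycline-inducible Flag-Halo CTCF (WT) sat at the Tigre locus. Both groups received 1 µM 5-Ph-IAA, which degrades the endogenous protein, together with 1 µg/mL doxycycline for 24 hours. The first group (ESC WT) was irradiated with 400 mJ/cm2 at 254 nm, the second (ESC noXL) received no UV, and CTCF was captured with anti-Flag beads from both. The NPC lists set beside them came from the same line differentiated in N2B27 medium on laminin, and the ESC ΔZF1 list from a line whose rescue is the CTCF-ZF1 mutant, both with the same treatment. The rescue is a coding sequence, so reads on Ctcf exons cannot tell the transgene from the endogenous gene.

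CTCF is a zinc finger protein that binds DNA at loop anchors and chromatin boundaries and that also contacts RNA. UV at this wavelength joins protein to RNA where they touch, favouring uridine, and the joined residue stops reverse transcription 1 base downstream of the contact. Without UV no such bond forms, so the sites of a noXL list record RNA that stayed with the beads and the places where its complementary DNA ended for other reasons.

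The ESC WT list held 451137 sites on the standard chromosomes, 95.1% of them in a gene on its strand, and the ESC noXL list held 158968, 94.9% of them in a gene. Counts per gene were scaled by these genic totals, a factor of 2.85, and the ratio of a gene is the log2 of the scaled WT over noXL count with 1 added to each. Ratios of RNA classes and of summed gene lists were scaled to genic sites and those of transcript parts and 5-mers to all sites of a list, with nothing added. The scaling removes the overall difference in list length, which follows sequencing depth as well as crosslinking. There was 1 pooled list per group, so no replicate error, test or p-value could be given. Intervals are 95% Wilson intervals, for ratios those of the WT share of the sites of both lists, and cover counting error only. The level of each RNA in the cells was not measured here. Of 10 stem cell marker genes, all had sites and 9 reached 20 (1315 WT and 325 noXL sites in all), whereas of 5 neural markers Nes alone had any, 2 WT and 0 noXL, and none of 6 primitive endoderm markers had a site in either list.

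Single sites are given as examples and do not represent the lists. The highest-scoring ESC WT site is given for genes with high ratios, 29 bases 5′ to 3′ in mm10, with the 5 bases centred on the site in capitals. They lie in Rn7sk (chr9:78175336-78175364, minus strand), in coding exons of Rtraf (chr14:19812345-19812373, minus strand), Ran (chr5:129020738-129020766, plus strand) and Klf4 (chr4:55530912-55530940, minus strand), and in the 5′ UTRs of Actb (chr5:142906713-142906741, minus strand) and Zfp42 (chr8:43306945-43306973, minus strand).
Rn7sk: aagcuuccaagaCUCCAgacacauccaaa
Rtraf: cauauucuuggcUUUGAcacaggcgguaa
Ran: uugacgggcgagUUUGAgaagaaguaugu
Klf4: uucccggccgccCCUACgaccuggcggcg
Actb: ggcgcaacgcgcAGCCAcugucgagucgc
Zfp42: ccaaggagcugaACUCCuagccgccuaga

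The highest-scoring ESC noXL site is given in the same way for genes with low ratios. These lie in introns of Mtcl1 (chr17:66381912-66381940, minus strand) and Cmip (chr8:117393579-117393607, plus strand), in coding exons of Fbrsl1 (chr5:110396031-110396059, minus strand) and Eif4g3 (chr4:138171080-138171108, plus strand), and in the 3′ UTR of Kmt2d (chr15:98833296-98833324, minus strand).
Mtcl1: cagccaugcacaGAAGGcugacgugucua
Cmip: uaauauuuguauACCACagugcuaaggau
Fbrsl1: ggcguggaugacAAGGUgagccuggcuuc
Eif4g3: acgaacuggaagAAGCCaaggacaaagcc
Kmt2d: cgcggggaggguGGGGGguauuuaucuau

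The base under the site separated the lists in nearly every gene. Among the 2325 genes with at least 20 sites in each list, the share of sites on a uridine was higher in ESC WT in 2315 (99.6%), and the intervals of the 2 shares lay apart in 1635 (70.3%). In the WT list uridine also stood at 49.0% of the bases just upstream of the site and at 36.4% of those just downstream, against 26.3% and 23.4% in the noXL list. From 3 bases away on either side the shares of the lists lay within 2 percentage points of each other.

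**Figure D1:**
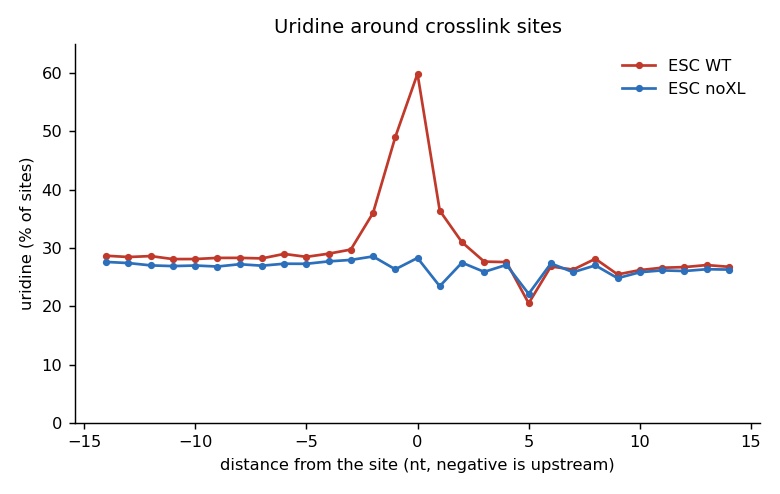
Share of sites with a uridine at each distance from the site, in nucleotides along the RNA, for the ESC WT (red) and ESC noXL (blue) lists. The WT curve peaks at 59.9% on the site itself and 49.0% just before it, while the noXL curve stays between 22.1% and 28.5% throughout.

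Of the 5-mers centred on a site, the 812 that held 200 or more sites over both lists were compared. The share of sites was at least 2-fold higher in ESC WT for 79 of them, 77 with a uridine at the site, and at least 2-fold lower for 266, 1 with a uridine at the site. UUUUU was the most frequent and the most enriched, with 12644 WT and 611 noXL sites and a log2 ratio of 2.87 (2.75 to 2.98). UUUUC followed with a log2 ratio of 2.83, AUUUU with 2.79 and CUUUU with 2.77, and the fifth in order was AUUGC with 2.60. At the other end, 17 of the 20 lowest 5-mers had an adenine at the site, and CACAC was the lowest with 185 WT and 248 noXL sites, a log2 ratio of -1.93 (-2.20 to -1.65). The most common noXL 5-mers were CAGGU (795 noXL and 812 WT sites) and AAGGU (751 and 791), and then GGGGG (710 and 972). CAGGU and AAGGU have the sequence usual where an exon meets an intron, but how many of their sites lie there was not counted.

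The ratios of single genes were centred near 0 with a wide spread. The median over the 6208 genes was 0.02, with quartiles of -0.37 and 0.43 and extremes of -3.90 and 3.88. The ratio was at or above 1 in 504 genes (8.12% of genes compared) and at or below -1 in 410 (6.60%), called enriched and depleted here. The interval lay wholly above 0 in 590 genes (9.50%) and wholly below 0 in 628 (10.1%), among them 377 of the enriched and 374 of the depleted genes. The genes nearest the limits stood at 1.00 and 0.99, and at -1.0 on both sides, so the limits cut through a continuous range. A gene reached 20 sites more easily through the longer WT list, and with a pseudocount of 5 in place of 1 the enriched genes were 45 in number.

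**Figure D2:**
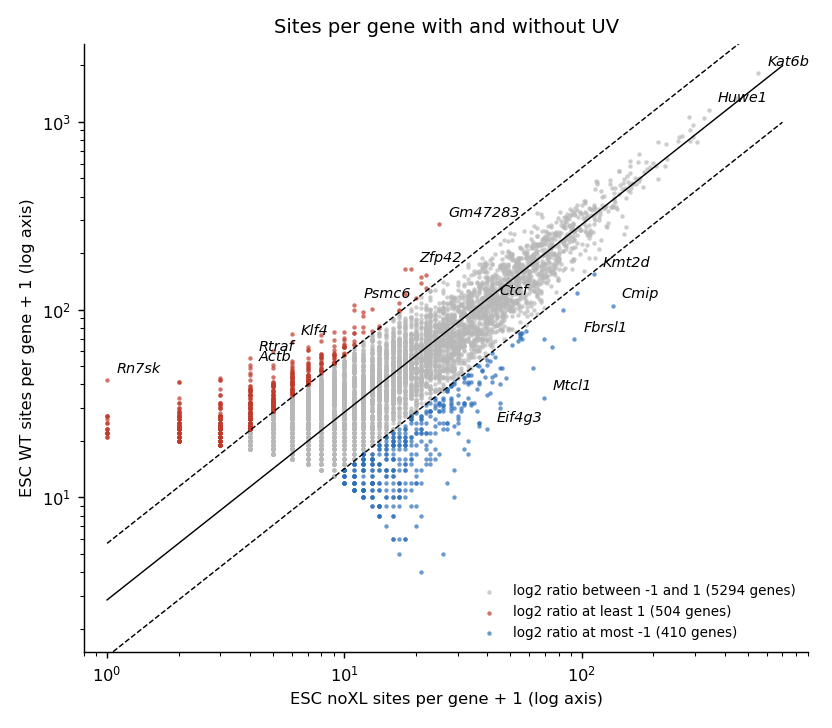
Sites per gene plus 1 in ESC noXL (x axis) and ESC WT (y axis), both log axes, for the 6208 genes compared. The solid line is the ratio of the genic totals, 2.85, the dashed lines lie 2-fold to either side, and the 504 red and 410 blue genes fall on or outside them, most of them genes with few sites.

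Counting only the 3267 genes with 50 or more sites, high ratios were found mostly in short genes. Rtraf, a subunit of the RNA ligase complex for transfer RNAs, had 54 WT and 3 noXL sites, a log2 ratio of 2.27 (1.07 to 4.26). Epm2aip1 had 50 WT and 3 noXL sites (2.16). Ran, the GTPase of nuclear transport, had 73 and 5 (2.12). Actb, cytoplasmic actin, had 48 and 3 (2.11). All 4 had at most 5 noXL sites, and their intervals run from between 0.89 and 1.09 to between 3.63 and 4.26.

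Calr, a calcium-binding chaperone of the endoplasmic reticulum, had 59 WT and 4 noXL sites (2.08). Klf4, a pluripotency transcription factor, had 66 and 5 (1.97). Mrpl3 of the mitochondrial ribosome had 48 and 4 (1.78), and the proteasome ATPase gene Psmc6 105 and 10 (1.76). The introns of Psmc6 held 47 and 2 sites and its exons 58 and 8. Gm47283 on chromosome Y had 284 WT and 24 noXL sites, a log2 ratio of 2.00 (1.46 to 2.65), nearly all in introns (274 and 21), and its copies elsewhere on that chromosome make the assignment uncertain.

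The lowest ratios lay mostly in long genes. Mtcl1, a microtubule crosslinking factor, had 33 WT and 68 noXL sites, a log2 ratio of -2.53 (-3.15 to -1.96). Its exons held 27 WT and 26 noXL sites and its introns 6 and 42. Cmip, an adaptor protein, showed the same split with 67 WT and 108 noXL intron sites against 37 and 26 exon sites, and stood at -1.87 (-2.24 to -1.51) over the gene.

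Eif4g3, a scaffold of the cap-binding complex, had 22 WT and 39 noXL sites (-2.31), 20 and 28 of them in exons and 2 and 11 in introns. Wdr59 (19 and 32, -2.23) and Vps13d (29 and 44, -2.09) had more noXL than WT exon sites. Grik3, a kainate receptor subunit, had 23 and 36 (-2.13). The zinc finger gene Rreb1 and Prr12 had 24 and 36 each (-2.07), Dock6 had 31 and 44 (-2.0), Fam222b 21 and 29 (-1.96) and Fbrsl1 69 and 92 (-1.92). Fam222b had 0 WT and 19 noXL intron sites. Fbrsl1 had 34 and 35 exon sites and 35 and 57 intron sites.

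Among the 567 genes with at least 200 sites the spread was narrower. After Gm47283, the highest were Nucks1, a chromatin-associated phosphoprotein, with 174 WT and 32 noXL sites (0.90), Pabpc1, the poly(A)-binding protein, with 168 and 32 (0.85), 2610507B11Rik with 254 and 49 (0.84) and Prrc2c with 328 and 64 (0.83). In each of these the exon ratio, scaled to exonic sites, exceeded the intron ratio, scaled to intronic sites, most of all in Nucks1 (2.04 against 0.41). After Cmip, the lowest were Mtmr3 (122 and 94, -1.14), the histone methyltransferase genes Kmt2d (154 and 111, -1.04) and Kmt2c (160 and 101, -0.85), and Myo10 (123 and 77, -0.84).

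The genes with most noXL sites were close to the scaling line. Kat6b, a histone acetyltransferase, had 1817 WT and 552 noXL sites (0.21), Huwe1, a ubiquitin ligase, 1161 and 341 (0.26), the corepressor Ncor1 1045 and 326 (0.17), and the transcription factor Tead1 783 and 304 (-0.15). Gm20388, 1334 and 445 (0.07), spans many other genes, and 4.16% of its sites belong to it alone. Ctcf itself had 109 WT and 40 noXL sites, a log2 ratio of -0.08 (-0.58 to 0.46). Its exons held 51 and 9 sites (0.71 scaled to exonic sites) and its introns, which the transgene lacks, 58 and 31 (-0.36).

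A total of 17 genes had no noXL site at all, and none had no WT site. Rn7sk, the 7SK RNA that holds the elongation factor P-TEFb inactive, had 41 WT sites, at least 4.80-fold more than noXL after scaling when 3 sites are taken as the floor. Ndufa1, a subunit of respiratory complex I, had 21 WT sites, at least 2.46-fold more. The others held between 20 and 26 WT sites, among them Commd3, Ttc4, Dnajc19 and Banf1, the barrier-to-autointegration factor. Having no noXL site, they entered the comparison only with 20 or more WT sites, so a ratio above 1 was fixed for them.

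Coding exons and UTRs held larger shares of the WT list than of the noXL list, and introns a smaller one. The 5′ UTRs held 7.54% of WT and 6.24% of noXL sites, a log2 ratio of 0.27 (0.24 to 0.31). The 3′ UTRs held 15.6% and 12.9% (0.28, 0.26 to 0.30), and coding exons 34.6% and 32.0% (0.11, 0.09 to 0.12). Introns held 31.7% and 38.1% (-0.26, -0.28 to -0.25). Exons of non-coding transcripts stood at 0.01 (-0.02 to 0.05), antisense sites at -0.14 (-0.22 to -0.06) and intergenic sites at -0.05 (-0.09 to -0.01). Within genes, the intron share was lower in ESC WT in 1651 of the 2325 genes (71.0%) with 20 sites in each list.

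Intron sites close to splice sites were counted apart. Introns within 50 nt of a 3′ splice site held 5877 WT and 3101 noXL sites, a log2 ratio of -0.58 (-0.65 to -0.52), and within 50 nt of a 5′ splice site 3502 and 1909 (-0.63, -0.71 to -0.55). The rest of the introns stood at -0.24 (-0.25 to -0.22). On bases other than uridine the value near 3′ splice sites was -0.048 (-0.12 to 0.029), and in NPCs the values near 3′ and 5′ splice sites, -0.51 and -0.61, were not lower than the -0.65 of the rest of the introns. Intron order was taken from the longest coding transcript, for intron sites in a single gene that was protein coding. Of the sites so placed, the first introns held 24.0% in WT and 26.3% in noXL (-0.14), the second introns stood at -0.02 and later introns at 0.06. Along the gene body in 10 equal bins, only sites in a single gene that was protein coding were counted. The last bin held 19.7% of such WT and 17.3% of such noXL sites (0.18), while the first bin stood at 0.02 and the one after it at -0.12. On uridine sites alone the last bin stood at 0.30 and the first at -0.27, and on other bases at -0.04 and 0.43.

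The parts did not behave alike on uridines and on other bases. Uridine made up 71.0% of WT sites in 3′ UTRs against 31.3% of noXL sites, 60.0% against 23.9% in coding exons, 62.4% against 31.6% in introns, and 35.3% against 23.0% in 5′ UTRs. Counting sites on uridine alone, as shares of all uridine sites of each list, coding exons stood at 0.35 and 3′ UTRs at 0.37, whereas 5′ UTRs turned to -0.19. Counting sites on the other 3 bases, as shares of all such sites, 5′ UTRs stood at 0.86 (0.82 to 0.90), coding exons at 0.02 and 3′ UTRs at -0.13 (-0.16 to -0.10). Introns were lower in WT in both sets, at -0.36 and -0.29. As each set has its own total, these values do not divide up the ratio over all sites, and before any scaling the 5′ UTRs held 12005 WT and 2279 noXL sites on uridine. With sites within 8 nt of each other merged into 1, 5′ UTRs stood at 0.022 over all bases and coding exons at 0.066.

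**Figure D3:**
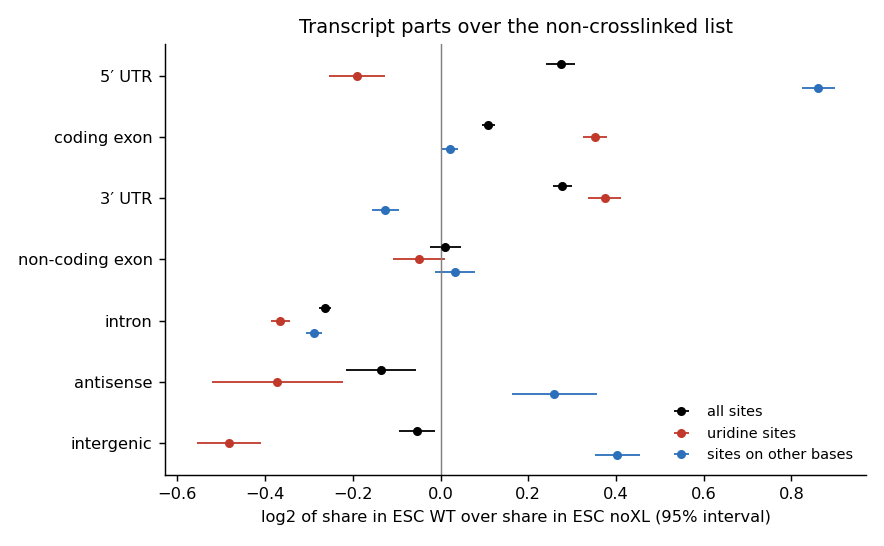
Log2 of the share of sites in ESC WT over that in ESC noXL for 7 parts of the annotation, with 95% Wilson intervals, for all sites (black), sites on uridine (red) and sites on other bases (blue). For 5′ UTRs the blue point lies at 0.86 and the red at -0.19, each set being scaled to its own total, for 3′ UTRs the order is turned, and for introns all 3 points lie below 0.

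The last base of an exon before an intron held about as many sites in both lists although the WT list was far longer. There were 2868 WT sites (0.636% of the list) and 2761 noXL sites (1.74%) on it, a log2 ratio of -1.45 (-1.53 to -1.37), and 1.04 WT sites for each noXL site before scaling. On the next base, the first of the intron, there were 95 and 53. Guanine, the usual last exon base, was under 76.9% of these WT sites and 79.3% of the noXL sites, and uridine under 7.95% and 6.52%. The noXL sites were spread over 1942 genes with at most 8 in 1 gene, and 455 positions were in both lists, 15.9% of the WT and 16.5% of the noXL positions. Their median score was higher than that of the other sites in both lists, 5.64 against 4.34 in noXL and 3.01 against 2.55 in WT.

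In NPCs, whose libraries are others, the same base held 1.47% of noXL sites, more than any other base within 10 of it. In NPC WT it held 0.341%, above the 0.032% and 0.013% of the bases next to it but below the 0.536% found 6 bases upstream. In the ESC list of CTCF without its first zinc finger (ΔZF1) it held 1.16%. To show the boundary itself, 1 such noXL site is given from each of the 4 genes with most of them, coding exon ends of Cnot1, the scaffold of the CCR4-NOT deadenylase (chr8:95751727-95751755, minus strand), of Ep400, a chromatin remodeller (chr5:110701607-110701635, minus strand), of Kat6b (chr14:21664734-21664762, plus strand) and of Mdn1, a ribosome assembly ATPase (chr4:32739965-32739993, plus strand). The capitals are the last 3 bases of the exon, ending at the site, and the first 2 of the intron.
Cnot1: caucauuugcagGAGGUaagugccuugau
Ep400: acccagauacaaAAGGUaucucacauaau
Kat6b: cugcccuuuguaGAAGUaaguggaggguu
Mdn1: ccuguacuucaaCAGGUaguauagccaac

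Cnot1 had 9 WT and 8 noXL sites of this kind, Ep400 3 and 8, Kat6b 7 and 7, and Mdn1 8 and 7. All 4 genes had over 2 WT sites per noXL site in total, with log2 ratios of 0.19, -0.24, 0.21 and 0.20. The second base upstream of annotated transcript starts also held many sites, 3650 WT and 1513 noXL, with a smaller difference of -0.23 (-0.32 to -0.15).

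**Figure D4:**
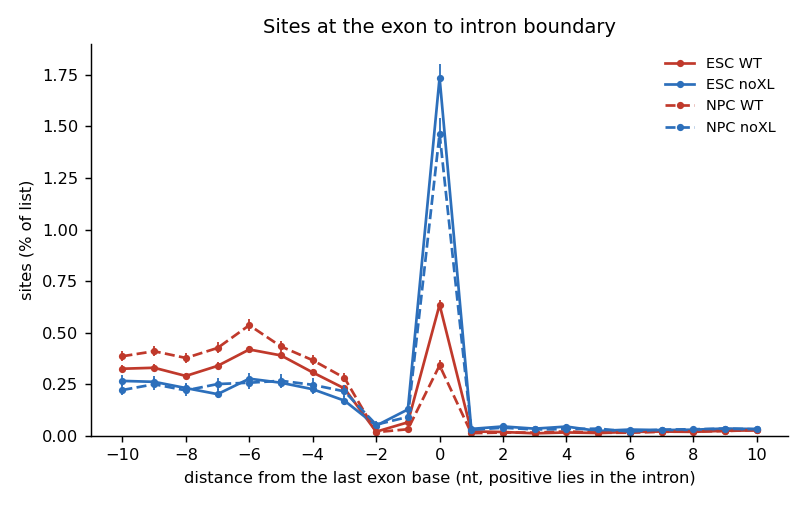
Share of each list's sites at each base from 10 upstream to 10 downstream of the last exon base, in percent with 95% Wilson intervals, for ESC (solid) and NPC (dashed) WT (red) and noXL (blue) lists. Both noXL lists and ESC WT are highest at 0, at 1.74% in ESC noXL, 1.47% in NPC noXL and 0.636% in ESC WT, whereas NPC WT, at 0.341% there, is highest 6 bases upstream at 0.536%.

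Small nuclear RNAs were the class with the largest excess in ESC WT. Genes annotated as snRNA, the RNAs of the spliceosome and their many copies, held 522 WT and 52 noXL sites, a log2 ratio of 1.82 (1.41 to 2.23). The sites were spread over 181 genes in WT and 46 in noXL, with at most 8 in 1 gene, so none reached 20, and in NPCs, with other libraries, the class stood at 2.26 (1.72 to 2.81). The miscellaneous RNAs held 95 and 10 sites (1.74, 0.82 to 2.66), 41 of the WT sites in Rn7sk, and without Rn7sk 54 and 10 (0.92, -0.03 to 1.88). The noXL list had Rn7sk at 0 in both cell types, the ΔZF1 list of ESCs had 31 sites in it and the NPC WT list 3.

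Pseudogenes held 1600 and 398 sites (0.50, 0.34 to 0.66), but their interval included 0 with neighbouring sites merged (0.11, -0.062 to 0.28) and on uridine alone (0.24, -0.028 to 0.52). Small nucleolar RNAs held 584 and 160 sites (0.36, 0.11 to 0.61). Ribosomal RNA genes (136 and 33, 0.53, -0.01 to 1.08) and microRNA genes (240 and 94, -0.16, -0.50 to 0.19) had intervals that include 0. In NPCs these classes stood at 1.23 (0.49 to 1.97) and 0.03 (-0.33 to 0.40). With only the highest-scoring ESC WT sites they stood at 1.53 (0.96 to 2.10) and 0.70 (0.33 to 1.07), and on uridine alone at -0.29 and -0.45. Protein-coding genes held 98.1% of genic WT and 98.2% of genic noXL sites. Long noncoding RNA genes held 4976 and 1860 sites (-0.09, -0.17 to -0.01). This value turned to 0.086 (-0.005 to 0.18) with only the highest-scoring WT sites and to 0.034 (-0.065 to 0.13) on bases other than uridine. Reads from repeated small RNA genes and pseudogenes can belong to any of their copies, and a small RNA inside an intron took the site here. With protein-coding genes taking it instead, the small nucleolar RNAs turned to -0.16 and the snRNAs stood at 1.69.

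Of 131 long noncoding RNA genes compared, 13 were enriched (9.92%) and 5 depleted (3.82%), beside 488 (8.08%) and 403 (6.68%) of 6037 protein-coding genes. Among those with 50 sites, the highest were 4632427E13Rik (60 WT and 6 noXL sites, 1.61) and Gm36816 (48 and 6, 1.30). Gm20939 (47 and 7, 1.08) came next and turned to -0.12 on uridine sites alone. The lowest noncoding genes were the unitary pseudogene 4930519F16Rik (31 and 31, -1.51), 2410003L11Rik (37 and 25, -0.96) and Gm30228 (45 and 26, -0.74).

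In a list of 22 nuclear long noncoding RNAs, 10 reached 20 sites, with 0 enriched, 1 depleted and a median of 0.02, as over all genes, of which 8.12% were enriched and 6.60% depleted. Pvt1, the noncoding neighbour of Myc, was the depleted one, with 7 WT and 20 noXL sites (-2.90, -4.23 to -1.82), 14 of the noXL sites in introns. Malat1 of nuclear speckles had 41 and 7 (0.88, -0.09 to 2.17). Neat1 of paraspeckles had 85 and 33 (-0.17, -0.72 to 0.43), Kcnq1ot1, the imprinted antisense RNA, 198 and 49 (0.48, 0.06 to 0.96), and Firre 186 and 64 (0.02, -0.38 to 0.44). Tsix, the antisense RNA of the X inactivation centre, had 329 and 102 (0.17), 11.8% of them in no other gene. Of 20 small nucleolar RNA host genes, 13 reached 20 sites and 2 were enriched (15.4%), Snhg5 and Snhg20, each with 36 and 3 sites (1.70). Gas5, another host, had 35 and 22 (-0.86), and the list's median was -0.01.

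Ribosomal protein and respiratory chain genes had the highest list medians. Of 83 cytosolic ribosomal protein genes 81 reached 20 sites, 23 were enriched (28.4%) and 0 depleted, beside 8.12% and 6.60% of all genes compared. A ratio above 0 was found in 73, and the median was 0.62, beside 0.02 over all genes. Rps21 had 26 WT and 1 noXL sites (2.25), Rps27 20 and 1 (1.88), and the lowest members were Rpl23a (33 and 15, -0.42) and Rps19 (57 and 26, -0.41). The list held 3744 WT and 851 noXL sites together (0.63, 0.52 to 0.74), and stood at 0.83 in NPCs. Exon sites were at 0.73 and intron sites at 0.38.

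Of 62 nuclear-encoded respiratory chain genes 48 reached 20 sites, 13 were enriched (27.1%, beside 8.12% of all genes), 0 depleted, and the median was 0.60. The 13 include Ndufa1, which had no noXL site and so could only stand above 1. Uqcrb of complex III had 19 WT and 1 noXL sites (1.81), and Cox6a1 was lowest with 15 and 7 (-0.51). Together they held 2077 and 455 sites (0.68, 0.54 to 0.83), and 0.87 in NPCs. Of 28 chaperone genes 26 were compared, 3 were enriched (11.5%, beside 8.12% of all genes) and the median was 0.55, with 25 ratios above 0. The cytosolic chaperone Hsp90ab1 had 67 and 7 sites (1.58) and the mitochondrial co-chaperonin Hspe1 31 and 3 (1.49), while Cct3 of the TRiC chaperonin had 60 and 29 (-0.48). Of 34 proteasome subunit genes 31 were compared, 5 were enriched (16.1%, beside 8.12% of all genes) and the median was 0.39, from Psmc6 at 1.76 to Psmd4 (44 and 24) at -0.66.

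Of 37 translation factor genes compared, 29 had a ratio above 0 and the median was 0.27. The 3 enriched (8.11%) and 2 depleted (5.41%) were shares near those of all genes, 8.12% and 6.60%. The elongation factor genes Eef1a1 (62 WT and 6 noXL sites, 1.66) and Eef2 (80 and 11, 1.25) were at the upper end, and Eif4g3 and the X-linked initiation factor gene Eif2s3x (20 and 14, -1.02) at the lower. Eif4g1, which encodes the paralogue of Eif4g3, had 175 and 41 sites (0.56). In Eif2s3x the exons held 20 and 6 sites and the introns 0 and 8.

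RNA-binding protein lists had medians slightly above that of all genes, and shares of enriched members near the 8.12% of all genes. Of 31 hnRNP genes compared 2 were enriched (6.45%), Hnrnpll (81 and 13, 1.04) and Hnrnpa3 (115 and 19, 1.03), with a median of 0.28. Of 18 SR splicing factor genes compared 2 were enriched (11.1%), Srsf2 (32 and 4, 1.21) and Srsf5 (57 and 9, 1.03), with a median of 0.30. Neither list had a depleted member. Intervals lay wholly above 0 in 8 of the 31 hnRNP and 6 of the 18 SR genes, beside 9.50% of all genes. They lay wholly below 0 in 1 and 0, beside 10.1%. Summed over members the lists stood at 0.28 (0.19 to 0.37) and 0.32 (0.19 to 0.44). A list of actin, tubulin and actin-binding protein genes had a median of 0.34 over 15 members with 2 enriched, Actb and Tmsb10, the actin-binding thymosin beta 10 (18 and 2, 1.15). Of 63 histone genes 3 reached 20 sites, H2afx the highest with 19 and 1 (1.81), but the list held 470 WT and 82 noXL sites together (1.01, 0.67 to 1.35).

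Pluripotency genes included some of the highest ratios. Of 30, 26 reached 20 sites, 5 were enriched (19.2%, beside 8.12% of all genes), 0 depleted, and the median was 0.33. Zfp42 (Rex1), a marker of naive stem cells, had 164 WT and 18 noXL sites (1.61, 0.98 to 2.37), 124 and 10 of them in introns. The Nodal co-receptor gene Tdgf1 had 100 and 12 (1.45, 0.70 to 2.40). Nanog had 85 and 21 (0.46, -0.17 to 1.19), with exon sites of 32 and 1 and intron sites of 53 and 20, and the demethylase gene Tet1 619 and 159 (0.45, 0.20 to 0.70), with exon sites of 166 and 12.

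Pou5f1 had 37 and 6 sites (0.93) and Sox2, all of whose sites also lie in an overlapping transcript, 35 and 7 (0.66). Esrrb, with 460 and 158 (0.03, -0.23 to 0.29), and the RNA-binding protein gene Lin28a, with 17 and 8 (-0.51), did not share the excess, and the methyltransferase gene Dnmt3b was lowest with 13 and 8 (-0.87). Together the list held 3549 and 963 sites (0.37, 0.27 to 0.48), and -0.21 in NPCs, where Klf4, Esrrb and Tdgf1 had no site in either of the 2 lists compared there.

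Large chromatin regulators had the lowest median of any list with over 6 members compared. Of 46, 43 reached 20 sites, 0 were enriched and 3 depleted (6.98%, near the 6.60% of all genes). A ratio above 0 was found in 12, and the median was -0.34, with 17 intervals wholly below 0 and 1 above, beside 10.1% and 9.50% of all genes. The deacetylase gene Hdac4 (10 WT and 12 noXL sites, -1.75) was the lowest, and Kmt2d was also depleted. Kmt2a had 185 and 91 (-0.49) and the remodeller gene Arid1a 226 and 111 (-0.49). Together they held 9727 and 3714 sites (-0.12, -0.17 to -0.06), with exon sites at -0.38 scaled to exonic sites and intron sites at 0.24 scaled to intronic sites. Kat6b (1817 and 552, 0.21) and Ncor1 (1045 and 326, 0.17) are members and weigh heavily in these sums.

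The medians of other regulator lists were near that of all genes. The 19 CTCF and cohesin genes compared had a median of -0.08 and 1 depleted member (5.26%, near the 6.60% of all genes), Zfp143 (12 and 10, -1.27). The cohesin subunit gene Stag1 had 235 and 120 (-0.54, -0.86 to -0.22), Rad21 173 and 55 (0.13) and the release factor gene Wapl 291 and 77 (0.40). The 21 Polycomb genes had a median of 0.09 and 2 depleted members (9.52%), Cbx6 (38 and 27, -1.03, 4.62% of its sites in no other gene) and Phc3 (16 and 11, -1.01), while Ezh2 had 442 and 133 (0.22).

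Replication genes (21 compared, median 0.07), nucleolar protein genes (26, -0.05) and glycolysis genes (13, 0.11) had no member past either limit, beside 8.12% and 6.60% of all genes above and below. Large ubiquitin ligases (22, 0.03) had 1 depleted member (4.55%), Hectd4 (8 and 15, -2.34). Of the 10 basement membrane genes compared, 2 were enriched, Lamb1 (41 and 2, 2.30) and Sparc (56 and 7, 1.32), Lama5 was lowest (47 and 27, -0.73) and the median was 0.10. Of 30 axon guidance and adhesion genes 6 were compared, with a median of -0.43 and 1 depleted, Slit2 (18 and 16, -1.35).

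**Figure D5:**
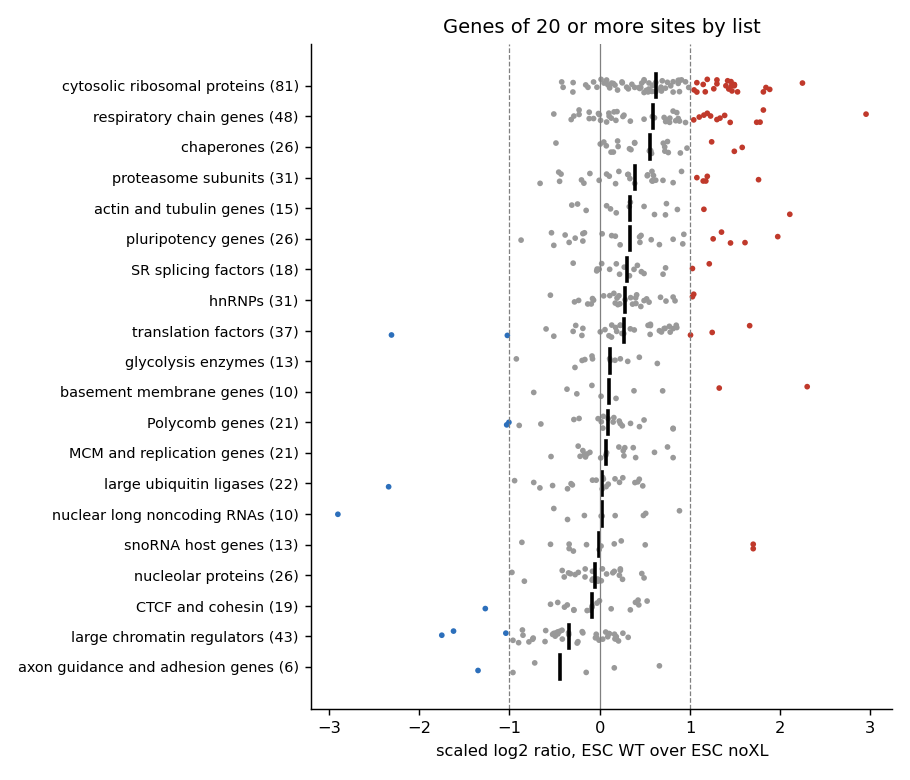
Scaled log2 ratio of each gene with at least 20 sites, in 20 gene lists ordered by median (black bars), with the number of genes compared in brackets, red at or above 1 and blue at or below -1. Medians run from 0.62 for cytosolic ribosomal proteins to -0.34 for large chromatin regulators and -0.43 for the 6 axon guidance and adhesion genes.

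Short genes had higher ratios than long genes. Over the 6208 genes, Spearman's rho with the ratio was -0.33 for the length of the gene body, -0.28 for the number of exons, 0.15 for the uridine share of its exons and -0.11 for their GC share, given as descriptions since genes are not independent. Split by gene length into 5 equal bins, the median ratio was 0.32, 0.13, 0.03, -0.04 and -0.29 from short to long. The shortest bin held 222 enriched (17.9%) and 25 depleted genes (2.01%) and the longest 26 (2.09%) and 195 (15.7%), beside 8.12% and 6.60% of all genes. The order was the same for exon sites alone (0.21 in the shortest bin, -0.20 in the longest) and intron sites alone (0.29 and -0.15). The median gene body was 11929 nt with 7 exons among enriched genes, 27109 nt with 11 exons between the limits, and 61881.5 nt with 17 exons among depleted genes. The median gene body was 3289 nt among cytosolic ribosomal protein genes and 8236 nt among respiratory chain genes, while the shortest bin reached up to 9906 nt. The part of gene length in the differences between gene lists was not tested.

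Depleted genes also had fewer uridine sites in the WT list. Uridine was under 51.7% of their WT sites, against 61.4% in enriched genes and 61.5% between the limits, while in the noXL list the shares were 26.4%, 25.6% and 28.7%. Introns held 16.5% of the WT and 36.7% of the noXL sites of depleted genes, and 16.4% and 20.2% of those of enriched genes. Ratios from uridine sites and from other bases ran together only loosely, with a rho of 0.24 over 3646 genes, as did exon and intron ratios with 0.11 over 1876 genes. By chromosome, medians lay between -0.07 (chromosome 18) and 0.18 (chromosome 14), apart from chromosome Y with Gm47283 as its one gene.

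NPC WT and NPC noXL, which share no library with the ESC lists, gave ratios for 4312 of the 6208 genes, with a rho of 0.40. Of the 504 enriched genes 224 had an NPC ratio, at or above 1 in 86 (38.4%) and above 0 in 187 (83.5%), with a median of 0.71. Of the 410 depleted genes 223 had one, at or below -1 in 56 (25.1%) and above 0 in 42 (18.8%), with a median of -0.59. Of 3865 genes between the limits 9.37% stood at or above 1 and 4.37% at or below -1 in NPCs, beside 10.5% and 6.51% of all 4765 genes compared there. The ΔZF1 list of ESCs shares its noXL control with ESC WT, and there the medians were 1.23 for 178 enriched, -0.71 for 336 depleted and 0.04 for 4390 other genes. Of the 5013 genes compared in that list, 7.86% stood at or above 1 and 6.56% at or below -1.

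By transcript part, in NPCs 5′ UTRs stood at 0.55, coding exons at 0.46, 3′ UTRs at 0.18 and introns at -0.65. No test of ESCs against NPCs was possible. Of single genes, Rtraf stood at 1.63 in NPCs, Calr at 1.37, Gm47283 at 2.26 and Eef1a1 at 1.63. Mtcl1 stood at -0.64, Cmip at -0.20, Eif4g3 at -0.60, Kmt2d at -0.88 and Hdac4 at -2.76.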

How the data were processed

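Libraries were 4 ESC WT and 4 ESC noXL iCLIP2 libraries, with NPC and ΔZF1 lists used beside them. The authors split and trimmed reads (Flexbar), mapped them to mm10 (STAR), collapsed PCR duplicates (UMI-tools), pooled libraries by condition and called single-base sites (PureCLIP), 1 nt before the read start. Their versions are not given in the sources used here. The deposited score of a site is that of PureCLIP, without further normalisation, and no threshold was set on it for the main values. Read depth per library is unknown, so the number of sites alone sets the precision.

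Sites were matched by strand to GENCODE M21 genes on GRCm38 (mm10), and each took 1 part in the order coding exon, 3′ UTR, 5′ UTR, exon of a non-coding transcript (annotated retained introns included), intron, antisense, intergenic. A site counted for every gene it lay in. Genes named were, among those with 50 or more sites and most of them in no other gene, the 10 highest and 10 lowest ratios, with the 5 highest and 5 lowest of 200 or more sites, 3 noncoding genes at each end, the 5 genes with most noXL sites, the 2 highest and 2 lowest members of each gene list and members with over 200 sites, Ctcf and markers. Small RNAs, genes without a noXL site, single list members and exon-end examples were chosen after their values were seen. The genes, lists and rules were chosen with earlier results of these data known. Alternatives changed the score threshold, base, scaling, pseudocount, minimum, overlap and annotation order, 1 at a time. Calculations used Python 3.11.15, numpy 2.4.6, pandas 2.3.3 and matplotlib 3.10.9 and were tested on simulated data. Sites outside chromosomes 1 to 19, X and Y, 758 WT and 243 noXL, were left out. Some genes that the rule for named genes selects are not reported here.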

Additional observations from a re-analysis of the deposited data

Results flagged for a closer look

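For 8 genes the scaled log2 ratio of WT over noXL lay past the limit of 1 in opposite directions in ESCs and NPCs. They were 5 of the 224 enriched and 3 of the 223 depleted genes with an NPC ratio (2.23% and 1.35%), below the 6.51% and 10.5% of all genes compared in NPCs that lay past those limits. Each list was pooled over libraries, so the difference between the cell types was not tested. Zfp42, the naive stem cell marker, stood at 1.61 in ESCs (164 WT and 18 noXL sites) and at -1.05 in NPCs (11 and 10). Csnk1g3, a casein kinase gene, stood at 2.14 (24 and 1) and -1.17 (17 and 17). A930004J17Rik, all of whose sites also lie in another gene, stood at 1.52 (48 and 5) and -1.27 (13 and 14), Shoc2, a scaffold of RAS signalling, at 1.37 (21 and 2) and -1.11 (21 and 20), and Lrrc47 at 1.15 (37 and 5) and -1.28 (12 and 13). The other 3 were low in ESCs and high in NPCs. Gpc1, a heparan sulfate proteoglycan gene, stood at -2.32 (7 and 13) and 1.41 (35 and 5), Sub1 at -1.19 (29 and 23) and 1.36 (28 and 4), and the phosphatase subunit gene Ppp2r5c at -1.06 (44 and 32) and 1.20 (30 and 5). In 7 of the 8, at least 1 of the 4 counts is 5 or lower.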

How the results depend on the processing

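No paired analysis was possible because sites were called on merged reads of each group, which also bars leaving out single libraries. Scaled by the median ratio instead of the genic totals, 83 of 83 values stayed close to the main ones. For ratios this means inside the counting interval of the main value, within which a value near 0 can change sign. Counts of genes have no such interval and were judged by their size. Over all alternatives 662 of 735 values of named genes, 215 of 314 of gene lists, 54 of 81 of RNA classes and 25 of 79 of transcript parts stayed inside theirs. Of the transcript parts 45 values moved and 9 turned, and of the RNA classes 24 and 3. Where values moved or turned, the cause was not tested unless the alternative's construction shows it. With a minimum of 10 sites 757 genes were enriched and 742 depleted, with a minimum of 50 it was 111 and 111, and with a pseudocount of 5 it was 45 enriched. With no scaling the counts were 5142 and 19, the list ratios of ribosomal proteins, respiratory chain, pluripotency and large chromatin regulators were 2.14, 2.19, 1.88 and 1.39, and Cbx6 (0.48), Eif2s3x (0.49), Kmt2d (0.47), Mtmr3 (0.37), Phc3 (0.50), Slit2 (0.16) and Zfp143 (0.24) turned positive, as the longer WT list makes them. Exon sites alone gave -0.38 for large chromatin regulators and 0.55 for pluripotency genes. Intron sites alone gave 149 enriched and 202 depleted genes, -0.54 for actin and tubulin, 0.38 for ribosomal proteins, 0.24 for large chromatin regulators and 0.36 for the respiratory chain. With introns ranked before exons, 3′ UTRs stood at 0.30, introns at -0.17 and non-coding exons at 0.43. With protein-coding genes ranked first, small nucleolar RNAs turned to -0.16. Without the 50 genes with most sites, introns stood at -0.32.

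With sites within 8 nt merged, 299 genes were enriched, ribosomal proteins stood at 0.42, the respiratory chain at 0.52, large chromatin regulators at -0.063, 5′ UTRs at 0.022, coding exons at 0.066, non-coding exons at 0.058, introns at -0.17, introns near 3′ and 5′ splice sites at -0.49 and -0.47, antisense at -0.29, intergenic at -0.22 and pseudogenes at 0.11. Sites with a score of at least the median gave 1.13 for ribosomal proteins, 1.16 for the respiratory chain, 0.50 for pluripotency, -0.30 for large chromatin regulators, 0.34 for 3′ UTRs, 0.60 for 5′ UTRs, 0.23 for coding exons, -0.58 for introns, -0.71 and -0.82 near 3′ and 5′ splice sites, 0.028 for antisense, 0.18 for intergenic, 0.85 for pseudogenes, 2.30 for snRNAs, 0.77 for small nucleolar RNAs and a uridine difference of 33.7 points, against 31.6 over all sites. With only as many of the highest-scoring WT sites as the noXL list holds, the same values in that order were 1.53, 1.43, 0.52, -0.41, 0.19, 0.89, 0.16, -0.61, -0.84 and -0.94, 0.41, 0.52, 1.04, 2.96, 1.64 and 33.3 points, with long noncoding RNAs at 0.086, microRNAs at 0.70, miscellaneous RNAs at 2.78, ribosomal RNAs at 1.53 and protein-coding genes at -0.014.

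Uridine sites alone gave 309 enriched genes, 0.87 for the respiratory chain, -0.12 for Gm20939, 0.37 for 3′ UTRs, -0.19 for 5′ UTRs, 0.35 for coding exons, -0.049 for non-coding exons, -0.36 for introns, -1.06 and -0.94 near 3′ and 5′ splice sites, -0.37 for antisense, -0.48 for intergenic, -0.17 for long noncoding RNAs, 0.71 for miscellaneous, 0.26 for other classes, 0.24 for pseudogenes, -0.29 for ribosomal RNAs and 2.49 for snRNAs. The other bases alone gave 241 enriched and 171 depleted genes, -0.046 for ubiquitin ligases, 0.24 for pluripotency, 0.45 for the respiratory chain, -0.13 for 3′ UTRs, 0.86 for 5′ UTRs, 0.022 for coding exons, -0.29 for introns, -0.048 and -0.37 near 3′ and 5′ splice sites, 0.26 for antisense, 0.40 for intergenic, 0.034 for long noncoding RNAs, 0.39 for microRNAs, 0.73 for pseudogenes and 1.31 for ribosomal RNAs. Leaving out sites within 5 nt of the other list gave 0.91 for ribosomal proteins, 0.93 for the respiratory chain, 0.73 for 5′ UTRs, 0.15 for coding exons, -0.35 for introns, -0.67 and -0.74 near 3′ and 5′ splice sites, -0.029 for antisense, 0.093 for intergenic, 0.41 for microRNAs, 2.33 for small nucleolar RNAs, 33.5 points for uridine and 6.17 for snRNAs, which kept 2 noXL sites. An alternative chosen after seeing the data left out sites at annotated exon ends and transcript starts. It gave 0.75 for ribosomal proteins, 0.14 for coding exons, -0.28 for introns, 0.63 for small nucleolar RNAs and 32.0 points. The smaller of the 2 site counts limits the precision of a ratio.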

Other observations

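Families within the small RNA classes were set apart after their values had been seen, and are given as values. Genes named as H/ACA small nucleolar RNAs, which guide pseudouridylation, held 101 WT and 6 noXL sites in ESCs, a log2 ratio of 2.56 (1.41 to 3.72), spread over 31 of 42 genes, and stood at 1.61 (0.62 to 2.60) in NPCs. Those named as C/D small nucleolar RNAs, which guide ribose methylation, held 135 and 62 sites (-0.39, -0.82 to 0.05) over 61 of 99 genes, and stood at -0.45 in NPCs. Uridine was under 83.2% of the WT sites of the first family and 40.0% of those of the second. The 5S ribosomal RNA genes and copies held 63 and 3 sites (2.88, 1.29 to 4.47), and 42 and 8 in NPCs (1.22, 0.15 to 2.28). The small Cajal body RNAs held 38 and 10 (0.42, -0.57 to 1.40). The telomerase RNA Terc had 11 WT sites and 1 noXL site. Members of each family share sequence with each other or with unnamed copies, and no difference between families was tested.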
